A study of Mus musculus with 16 samples.

Results

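The genes of the unfolded protein response and of protein quality control in the endoplasmic reticulum (ER) were followed in microglia, the resident macrophages of the brain, isolated from the olfactory bulb. The 40 members were chosen by symbol: the 3 ER stress sensors, 5 transcription factors and their regulator, 11 lumenal chaperones and cochaperones, 4 disulfide isomerases, 12 genes of ER-associated degradation, and 5 ATF4 targets or eIF2alpha phosphatase subunits. All 40 are among the 57010 genes of the count table, and 39 of them were among the 18227 genes that passed the filter on low counts (5 or more in 8 or more libraries). Trib3, a pseudokinase induced by ATF4, had 0 to 8 counts per library and was not tested.

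The libraries came from WT (C57BL/6J) mice and from APP-NL-G-F mice, whose App gene carries a humanised sequence with the Swedish, Arctic and Iberian changes at its own locus, so that no transgene promoter drives it. Each genotype had 4 female and 4 male libraries from mice aged 2 months. CD11b beads captured the cells after warm papain digestion, a capture that also takes border macrophages and monocytes. The comparison of genotypes asks how these microglia differ at an age when the study followed noradrenergic axons in the olfactory bulb.

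The ER folds membrane and secreted proteins. When unfolded proteins accumulate, the sensors PERK (Eif2ak3), IRE1 (Ern1) and ATF6 (Atf6) leave the chaperone BiP (Hspa5). They raise chaperones and degradation factors through the transcription factors XBP1 and ATF6, and they slow translation through phosphorylated eIF2alpha, which favours the translation of ATF4. ATF4 also answers amino acid shortage and other stresses through other eIF2alpha kinases.

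Between 9052932 and 18117286 counts were assigned per library. A count of 0 allowed up to 3 counts, or 0.166 to 0.331 CPM (here counts scaled to the library's total). All other CPM are scaled to the total over tested genes, adjusted by the library's TMM normalization factor. The 12 microglial markers, among them P2ry12, Tmem119 and Cx3cr1, were detected in every library and summed to 20687 to 24523 CPM, and 0 of 12 passed the test for genotype. In contrast, 17 of 20 immediate early genes (Fos, Jun, Egr1 and the like, which respond within minutes to stimulation and to tissue dissociation) were called lower in APP-NL-G-F. Their sum ranged from 13698 to 17660 CPM in WT females, from 8023 to 9446 in WT males, from 4298 to 7725 in APP-NL-G-F females and from 3717 to 8331 in APP-NL-G-F males. The 16 neuron markers summed to 433 to 602.5 CPM in WT and 540 to 799 CPM in APP-NL-G-F libraries, with 1 of 16 called higher and 7 higher at the FDR alone. Of the 8 oligodendrocyte markers, all above 0, 1 was called higher and 3 were higher at the FDR alone, and they summed to 232.7 to 431.8 CPM in WT and 284.5 to 419 CPM in APP-NL-G-F. Of 8 astrocyte, 10 endothelial and 9 border macrophage and monocyte markers 0 were called, and of 12 cytosolic heat shock genes 3 were called higher. All 10 endothelial and 7 of 8 astrocyte markers were below 0 (median log2 fold changes -0.16 and -0.25), 1 astrocyte marker at the FDR alone. Of the border macrophage and monocyte markers 8 of 9 were above 0 (median 0.05). No marker was at 0 throughout, and Opalin alone was at 0 in 1 library.

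The stretches just upstream of the transcription start are shown for 4 of the members described below as lower whose 150 bases hold an element searched, beside Hsp90b1 and Pdia6, which carry the same element as Hspa5 and Syvn1 and did not pass the test. Each line gives the 150 bases that end at the base before the start of the canonical transcript, 5′ to 3′ on the strand of the gene, from the GRCm39 genome with GENCODE vM39 starts. Capitals mark the elements searched.

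Herpud1, plus strand, chr8:95112887-95113036: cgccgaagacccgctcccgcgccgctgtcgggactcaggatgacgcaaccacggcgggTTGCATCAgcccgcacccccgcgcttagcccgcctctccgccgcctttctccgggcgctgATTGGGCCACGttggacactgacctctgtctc
Hspa5, plus strand, chr2:34661954-34662103: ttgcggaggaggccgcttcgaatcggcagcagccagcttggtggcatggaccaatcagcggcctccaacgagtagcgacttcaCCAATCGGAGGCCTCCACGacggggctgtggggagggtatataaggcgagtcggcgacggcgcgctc
Syvn1, plus strand, chr19:6096456-6096605: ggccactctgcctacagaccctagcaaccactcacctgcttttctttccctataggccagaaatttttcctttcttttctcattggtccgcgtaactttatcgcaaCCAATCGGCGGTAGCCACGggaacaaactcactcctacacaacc
Hsp90b1, minus strand, chr10:86541379-86541528: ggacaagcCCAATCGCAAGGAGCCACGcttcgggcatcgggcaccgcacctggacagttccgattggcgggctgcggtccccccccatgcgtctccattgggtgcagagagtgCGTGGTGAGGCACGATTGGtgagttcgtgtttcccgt
Pdia6, plus strand, chr12:17316383-17316532: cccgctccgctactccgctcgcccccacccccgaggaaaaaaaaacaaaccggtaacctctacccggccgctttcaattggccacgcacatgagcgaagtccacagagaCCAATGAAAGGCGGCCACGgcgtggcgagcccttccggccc
Ppp1r15a, minus strand, chr7:45175693-45175842: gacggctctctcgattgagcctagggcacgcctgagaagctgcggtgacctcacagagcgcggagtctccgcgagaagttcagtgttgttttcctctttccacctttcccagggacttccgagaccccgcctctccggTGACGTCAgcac

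The elements were searched on both strands of the 250 bases upstream of 17317 tested genes and of the 40 members. The ER stress element (ERSE), CCAAT and CCACG with 9 bases between them, was in 9 of 40 members (22.5%) and in 17 of 17317 promoters (0.0982%), the members among them. The 9 were Hspa5, Hsp90b1, Calr, Canx, Creld2, Dnajc3, Pdia6, Syvn1 and Derl3. ERSE-II, ATTGG and CCACG with 1 base between them, was in Hyou1, Manf and Herpud1 and in 0.0693% of promoters. TGATG and AA with 1 base between them, a composite site bound by ATF4 with C/EBP proteins, was in Ddit3, Herpud1, Chac1 and Ppp1r15b and in 2.46% of promoters, with the Ddit3 match at 199 to 192 bases upstream. The cyclic AMP response element TGACGTCA was in Ppp1r15a alone of the members and in 1.83% of promoters. TGACGTGG, the core of the XBP1 site, was in Hyou1, where it overlapped an ERSE-II, and in Vcp, and in 0.566% of promoters. Xbp1 and Atf4 held none of these. A match describes the letters in this window only.

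Levels between genes are compared per length, as CPM per kilobase of the canonical transcript (RPKM), over the 8 WT libraries. The highest were the lectin chaperone Calr (calreticulin, 489.9 ± 36.0 RPKM, SD, n = 8), Hsp90b1 (GRP94, 391 ± 31.8), the membrane lectin Canx (calnexin, 275) and Hspa5 (247 ± 62.1), and Canx lay within the spread of Hspa5. The lowest were Chac1 (0.289 ± 0.158), Asns (0.322 ± 0.0805) and Derl3 (0.423 ± 0.193), whose spreads overlapped. The sensors stood at 14.4 ± 0.713 (Eif2ak3), 12.4 ± 0.851 (Atf6) and 6.78 ± 0.334 RPKM (Ern1). Hspa5 varied most among these abundant chaperones, with a WT range of 888 to 1679 CPM against 981 to 1249 for Hsp90b1. These ranges hold both sexes: the means were 1449 CPM in WT females and 1002 in WT males for Hspa5, and 1096 and 1116 for Hsp90b1.

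**Figure D1:**
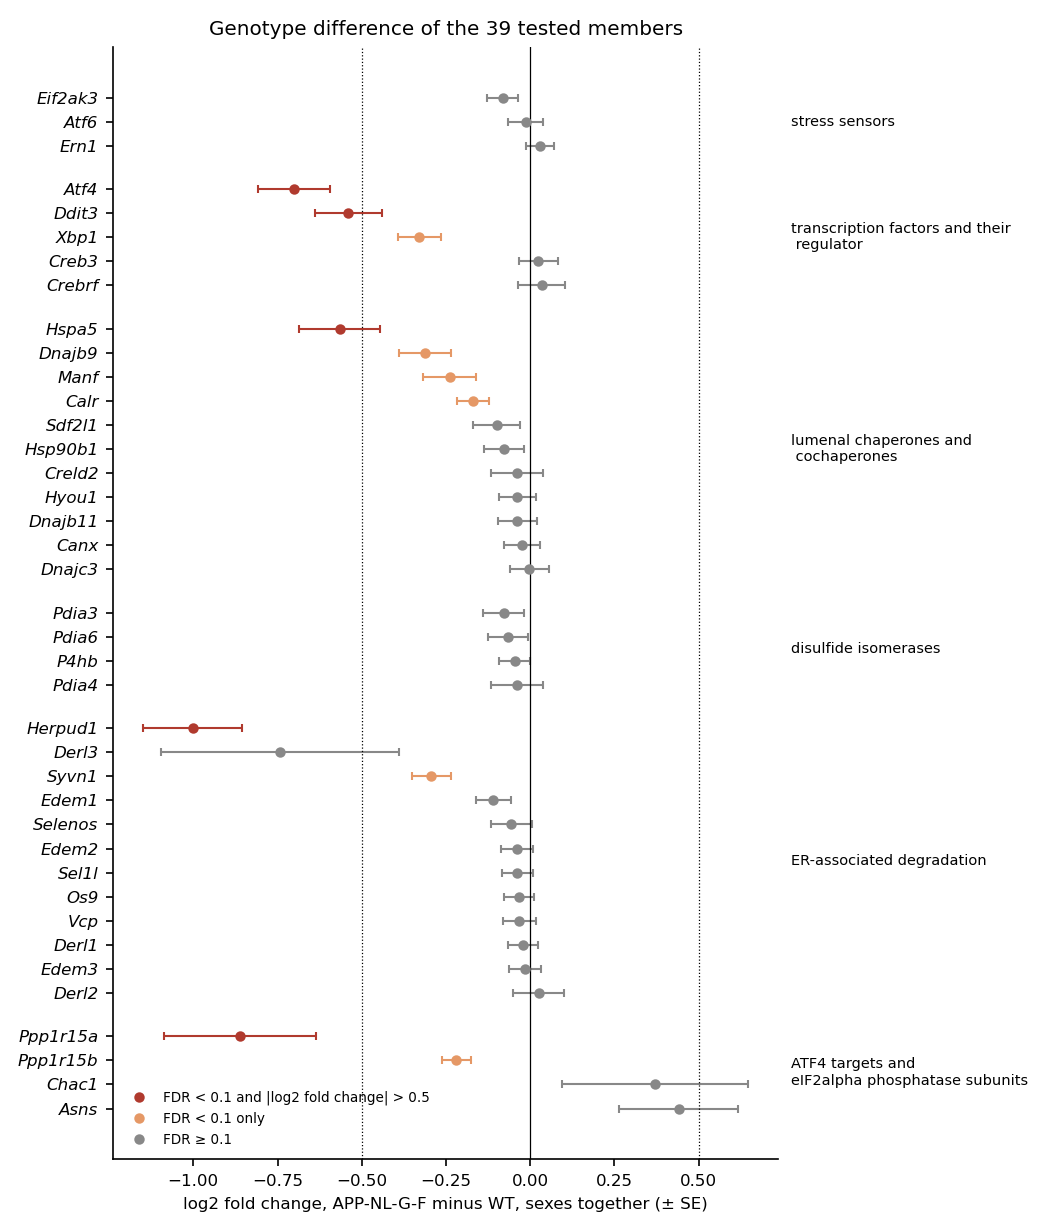
Log2 fold change (APP-NL-G-F minus WT, sexes together, ± SE, horizontal axis) of the 39 tested members, grouped by role. Red points passed an FDR of 0.1 and an absolute log2 fold change of 0.5 (dotted lines), orange points the FDR alone, grey points neither. The sensors and isomerases lie near 0, and the 5 red points range from -0.54 (Ddit3) to -1.001 (Herpud1).

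Over both sexes, 5 members fell in APP-NL-G-F microglia: Herpud1, Atf4, Ddit3, Hspa5 and Ppp1r15a. None rose. In GRCm39 these genes span chr8:95113022-95123141, chr15:80139372-80141745, chr10:127124268-127132163, chr2:34661982-34668880 and chr7:45172340-45175692, and gene counts sum over their exons. A gene was called at a false discovery rate (FDR) below 0.1 over all tested genes and an absolute log2 fold change above 0.5, with edgeR's quasi-likelihood test and sex as a term. The 5 called lower of 39 stand beside 4.30% of all tested genes, and the 0 called higher beside 4.33%. Of the members 1 (Asns) was higher at an unadjusted p under 0.05, and DESeq2 also called the same 5 lower and 0 higher. A further 6 passed the FDR below the fold threshold, all lower: Xbp1, Syvn1, Ppp1r15b, Dnajb9, Calr and Manf. With them 11 of 39 were lower at the FDR alone, beside 7.82% of all genes. Since most members were abundant, the 36 with at least 4 log2 CPM are also set beside the 7239 such genes. Of these genes 1.86% were called lower and 9.06% were lower at the FDR alone, against 5 and 11 of the 36. Log2 fold changes were below 0 for 33 of 39 members, with a median of -0.05, while the median of all genes was -0.00. Among the abundant ones, 32 of 36 members and 60.5% of genes were below 0. In bulk RNA, fewer cells of a type and less RNA per cell cannot be told apart.

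Herpud1 showed the largest and most separated difference. It encodes a membrane protein that organises the ubiquitin ligase complex for ER-associated degradation. Its 4 WT female libraries held 326, 316, 242 and 212.5 CPM, and the WT males 143, 149, 159.7 and 185 CPM. APP-NL-G-F females held 105, 103.5, 85.3 and 112 CPM, and APP-NL-G-F males 85.8, 88.4, 129 and 127 CPM. All 8 APP-NL-G-F libraries lay below the lowest WT library, which held for 1 member, while 1.15% of all tested genes separated in this direction. The log2 fold change was -1.001 ± 0.15 (SE, FDR = 0.000568), and the exact permutation of genotype within sex gave p = 0.000408, the smallest that its 4900 splits can give.

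Among the transcription factors, Atf4, the effector of phosphorylated eIF2alpha, followed the same order of groups. WT females held 216.5, 230.1, 223.5 and 221.5 CPM and WT males 139.8, 146, 175 and 162 CPM. APP-NL-G-F females held 106, 106, 102 and 139 CPM and APP-NL-G-F males 100.4, 90.7, 127 and 146 CPM. The WT females stood clear of all other groups, and of the APP-NL-G-F libraries 1 male reached the range of the WT males. Atf4 fell by 0.70 on the log2 scale (SE 0.11, FDR = 0.000701, exact permutation p = 0.000816).

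Ddit3 encodes CHOP, a factor downstream of ATF4 that is linked to cell death under prolonged stress. It held 21.5, 24.6, 23.6 and 26.1 CPM in WT females and 17.4, 18.4, 22.4 and 15.5 CPM in WT males. In APP-NL-G-F it held 15.25, 14.6, 12.9 and 14.6 CPM in females and 11.65, 12.9, 15.9 and 17.7 CPM in males. The female groups did not overlap and the male groups did. Its log2 fold change was -0.54 ± 0.10 (FDR = 0.00240, exact permutation p = 0.00204). This value is uncertain in its source: 2 overlapping genes of the annotation bear the symbol, and the overlapping antisense RNA Gm4189 also fell (log2 fold change -0.996, FDR = 0.00359). Which strand was counted is not given in the sources used here.

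Xbp1, the target of IRE1 splicing, was lower by a smaller amount. It held 117, 115, 100.5 and 91.1 CPM in WT females, 90.5, 93.0, 80.0 and 86.0 CPM in WT males, 88.2, 84.9, 68.2 and 80.5 CPM in APP-NL-G-F females and 68.2, 68.6, 79.0 and 76.1 CPM in APP-NL-G-F males. The genotypes did not overlap within either sex. The log2 fold change was -0.33 ± 0.06 (FDR = 0.00346), under the fold threshold, and the exact permutation p of 0.000408 was again the smallest possible. Gene counts do not separate spliced from unspliced Xbp1. Creb3 (0.02 ± 0.06), an ER-bound factor, and Crebrf (0.03 ± 0.07), a regulator of Creb3, were near 0 on the log2 fold change scale. So were the sensors, at -0.01 ± 0.05 for Atf6, 0.03 ± 0.04 for Ern1 and -0.08 ± 0.05 for Eif2ak3. The 95% interval of Eif2ak3 ran from -0.17 to 0.01 by a normal approximation, which is narrower than the quasi-likelihood test implies.

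Of the 11 chaperones and cochaperones, 1 was called and 3 more passed the FDR alone, all lower. Hspa5 (BiP), the ATP-driven chaperone that also restrains the sensors, held 1664, 1679, 1305 and 1146 CPM in WT females and 1050, 1167, 905 and 888 CPM in WT males. APP-NL-G-F females held 941, 967, 636 and 827.5 CPM and males 683, 623, 931 and 909 CPM. The female groups were apart, and the males overlapped. Its log2 fold change was -0.57 ± 0.12 (FDR = 0.00600, exact permutation p = 0.00245). Dnajb9 (ERdj4), a cochaperone of BiP, was at -0.31 ± 0.08 on the same scale (FDR = 0.0151), the secreted factor Manf -0.24 ± 0.08 (FDR = 0.0600), and Calr -0.17 ± 0.05 (FDR = 0.0301). Leaving out 1 library raised the FDR of Manf to as much as 0.127. In the annotation, Manf and Rbm15b share 3962 exonic bases on the same strand, and Rbm15b was at -0.12 (FDR = 0.185). The other 7 did not pass, and ranged from -0.10 for Sdf2l1, a partner of ERdj3, to -0.00 for Dnajc3 (p58IPK), with Hsp90b1 at -0.08, Hyou1 (GRP170, the nucleotide exchange factor of BiP) and Creld2 at -0.04, Dnajb11 (ERdj3) at -0.04 and Canx at -0.03. None of the 4 isomerases, which form and shuffle disulfide bonds, passed: Pdia3 (-0.08), Pdia6 (-0.07), P4hb (-0.05) and Pdia4 (-0.04).

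In ER-associated degradation, Herpud1 was followed by Syvn1, the ubiquitin ligase HRD1 whose complex Herpud1 joins. Syvn1 held 38.3, 40.35, 34.3 and 33.8 CPM in WT females, 29.0, 31.7, 28.7 and 27.9 CPM in WT males, 29.5, 25.5, 26.7 and 30.7 CPM in APP-NL-G-F females and 25.35, 24.2, 25.9 and 27.0 CPM in APP-NL-G-F males. Within each sex every APP-NL-G-F library was below every WT library, by a small step in males. The log2 fold change was -0.29 ± 0.06 (FDR = 0.00397, exact permutation p = 0.000408). The adaptor of HRD1, Sel1l, was at -0.04 ± 0.05 and did not pass, and neither did the 9 others. These were the channel-like derlins Derl1 (-0.02) and Derl2 (0.02), the mannosidases Edem1 (-0.11), Edem2 (-0.04) and Edem3 (-0.01), the lectin Os9 (-0.03), the extracting ATPase Vcp (-0.03), the VCP anchor Selenos (-0.06) and Derl3. Derl3 had 1 to 16 counts per library, just reached the filter in 8 libraries, and stood at -0.74 ± 0.35 (FDR = 0.206).

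Both phosphatase subunits fell, Ppp1r15b at the FDR alone, and the ATF4 targets of metabolism did not pass. Ppp1r15a (GADD34), the inducible subunit that returns eIF2alpha to its unphosphorylated form, held 333, 435, 502 and 458 CPM in WT females and 244.5, 296, 302 and 299 CPM in WT males. APP-NL-G-F females held 135, 183, 158 and 283 CPM, and males 99.0, 101, 272 and 316 CPM. The APP-NL-G-F males split into 2 libraries at about 100 CPM and 2 within or above the WT male range. The log2 fold change was -0.86 ± 0.23 (FDR = 0.0226, exact permutation p = 0.00490). The constitutive subunit Ppp1r15b passed the FDR alone at -0.22 ± 0.04 (FDR = 0.00401), and the RNA Gm26616 on its other strand also fell (-1.77, FDR = 0.000456). Asns, asparagine synthetase, went the other way at 0.44 ± 0.18, which did not pass (FDR = 0.126), from a mean of 1.58 ± 0.395 CPM in WT to 2.14 ± 0.311 CPM in APP-NL-G-F (SD, n = 8). Chac1, which degrades glutathione, had 3 to 13 counts per library and stood at 0.37 ± 0.28 (FDR = 0.455).

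**Figure D2:**
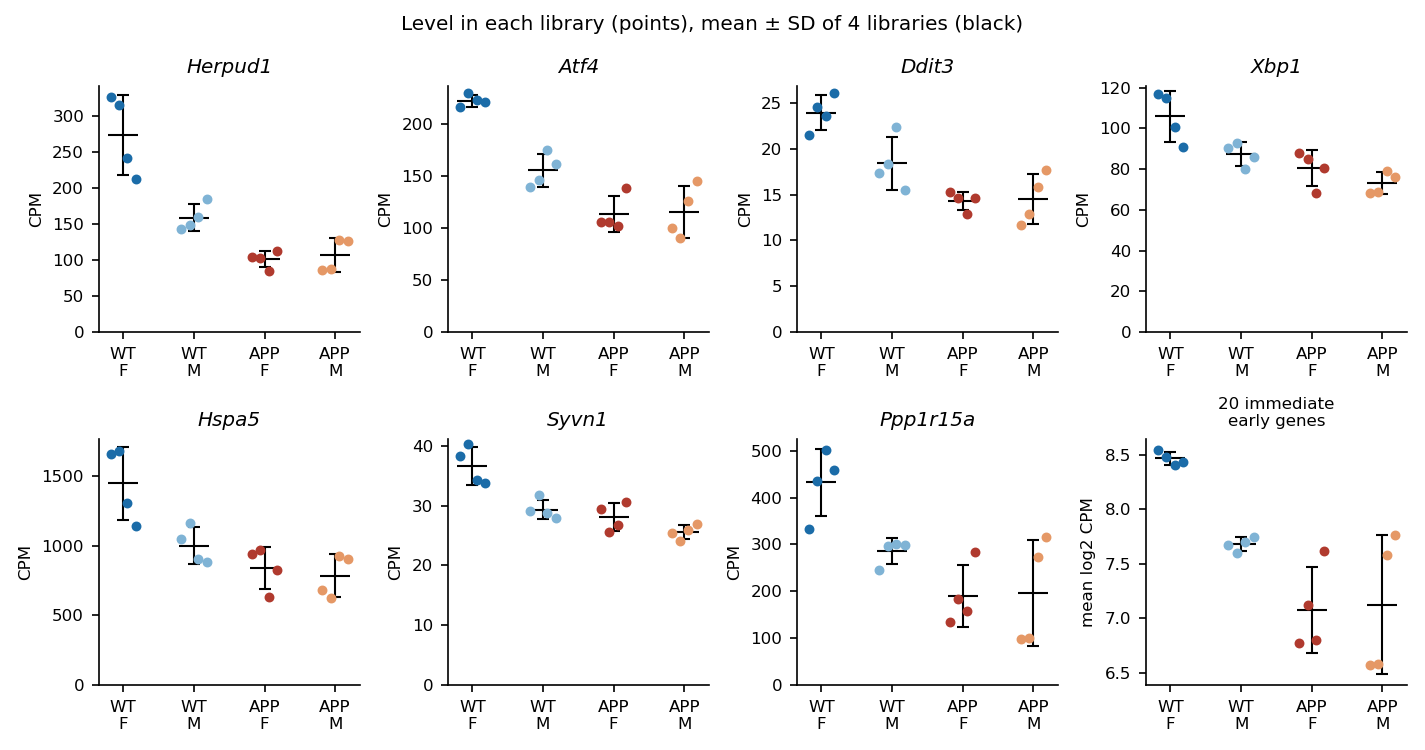
CPM of 7 members in each of the 16 libraries (points) with mean and SD of the 4 libraries (black), and the mean log2 CPM of 20 immediate early genes in the last panel. F and M are females and males, and APP is APP-NL-G-F. The WT female mean is highest in every panel, and the Herpud1 values of the genotypes do not overlap, at 143 CPM or more in WT and 129 CPM or less in APP-NL-G-F.

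Of the 12 tested members with an ERSE or ERSE-II, 2 were called lower and 5 were lower at the FDR alone, beside 4.30% and 7.82% of all genes, with log2 fold changes from -1.001 to -0.00 and a median of -0.12. Hspa5 and Syvn1 fell while Hsp90b1 and Pdia6, with the same element in the sequences shown, did not pass. Of the 4 members with the ATF4 composite site, Ddit3 and Herpud1 were called and Ppp1r15b passed the FDR alone, and Chac1 did not pass. Of the 22 tested members with none of the elements 1 was called lower (Atf4) and 3 were lower at the FDR alone, with a median of -0.04. These differences between sets of members were not tested.

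Some of the calls moved with the immediate early genes from library to library. Between the groups, the means of the 5 called members and of the immediate early genes were highest in WT females. Within APP-NL-G-F the 3 libraries with the highest immediate early mean (female replicate 4 at 7.62 log2 CPM, male replicates 3 and 4 at 7.58 and 7.77) also had the 3 highest values of Herpud1, Atf4 and Ppp1r15a in that genotype. This did not hold for Hspa5, whose highest APP-NL-G-F value, 967 CPM, was in another library. Nor did it hold for Ddit3, with female replicate 1 (15.25 CPM) above female replicate 4 (14.6 CPM). With the immediate early mean as a covariate, 0 of the members and 7 of all tested genes were called (edgeR). Herpud1 then stood at a log2 fold change of -0.39 (FDR = 0.856), Atf4 at -0.21 (FDR = 0.874) and Ppp1r15a at 0.08 (FDR = 0.968). The list itself differs by genotype, so its part and that of the genotype cannot be told apart here. With the neuron mean as covariate Herpud1 and Atf4 stayed called and Ddit3, Hspa5 and Ppp1r15a did not. With the endothelial mean all 5 stayed called, and with the cytosolic heat shock mean 7 were, with Asns and Derl3 added (both covariates were chosen after seeing the data). Without a covariate Asns was higher, at a log2 fold change of 0.44, and Derl3, with 1 to 16 counts per library, lower at -0.74. Libraries numbered 1 to 8 alone gave the same 5 calls, and libraries 9 to 16 alone gave Herpud1 only. Ppp1r15a was at -1.36 in the former and -0.57 in the latter. Without APP-NL-G-F female replicate 3 Hspa5 was at -0.50, just under the fold threshold, and library totals in place of TMM factors put Ddit3 at -0.49.

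**Figure D3:**
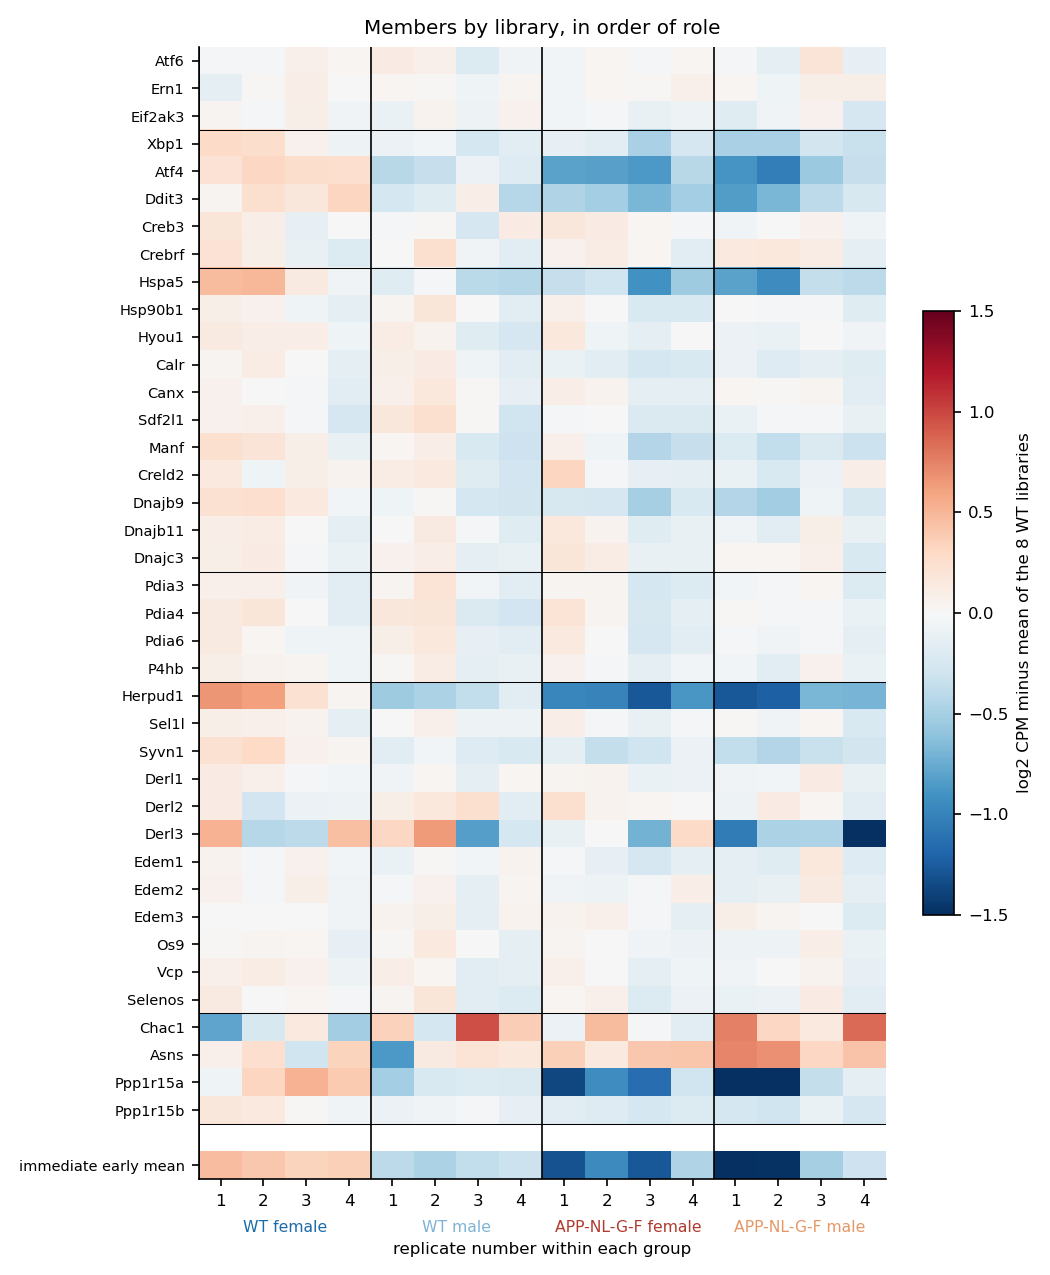
Log2 CPM of each tested member (rows, in order of role) in each library (columns, by group and replicate number), minus the mean of the 8 WT libraries, with the mean of the 20 immediate early genes as the last row. Blue is below and red above the WT mean. Herpud1, Atf4, Ddit3 and Ppp1r15a are blue across APP-NL-G-F, while the chaperones and isomerases are redder in replicates 1 and 2, the libraries numbered 1 to 8, in most groups.

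Within females the same 5 members were called lower, beside 4.33% of all genes, and 9 were lower at the FDR alone, beside 6.11%. The log2 fold changes were -1.43 ± 0.15 for Herpud1 (FDR = 0.000147), -0.97 ± 0.13 for Atf4 (FDR = 0.000512), -1.19 ± 0.31 for Ppp1r15a (FDR = 0.0298), -0.78 ± 0.16 for Hspa5 (FDR = 0.00600) and -0.73 ± 0.13 for Ddit3 (FDR = 0.00217), all from edgeR. The female ranges of the genotypes did not overlap for 9 members, the 5 and Xbp1, Dnajb9, Syvn1 and Ppp1r15b, beside 7.41% of all genes lower without overlap. Ranges without overlap always give the smallest exact permutation p that 70 splits allow, 0.0286. That p was therefore fixed for these 9 by their choice and adds nothing to the separation. Markers of other cells moved with the female comparison: 7 of 10 endothelial markers were called lower, and their sum was 95.0 to 209.7 CPM in WT and 86.2 to 106 CPM in APP-NL-G-F females. Of 8 astrocyte markers 3 were called lower, with sums of 611 to 1172 and 482 to 773.5 CPM. Of 16 neuron markers 12 were above 0 and 4 below, and 3 were called higher. The neuron sums were 484.1 to 533.1 CPM in WT and 630.4 to 746.1 CPM in APP-NL-G-F females. Their part in the female differences was not tested. Without APP-NL-G-F female replicate 3 Ppp1r15a was at an FDR of 0.101.

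Within males no member was called, beside 0.252% of all genes. DESeq2 called Herpud1. The directions were those of females for the 5, with log2 fold changes of -0.56 ± 0.15 for Herpud1 (FDR = 0.144), -0.42 ± 0.12 for Atf4 (FDR = 0.178), -0.53 ± 0.31 for Ppp1r15a (FDR = 0.519), -0.35 ± 0.16 for Hspa5 (FDR = 0.397) and -0.34 ± 0.13 for Ddit3 (FDR = 0.311). Before adjustment, 9 members were lower at p under 0.05, beside 6.05% of all genes, and Asns higher. The lower ones were Herpud1, Atf4, Xbp1, Derl3, Ddit3, Ppp1r15b, Syvn1, Hspa5 and Calr. The male ranges did not overlap for Herpud1, Xbp1 and Syvn1, lower, beside 3.18% of all genes. Those of Asns, with 9 to 31 counts per library, did not overlap in the higher direction. The share of all genes in that direction was not counted, so the separation of Asns cannot be judged. Markers of other cells also moved with the male comparison: all 10 endothelial markers were above 0 (median log2 fold change 0.69, sums of 67.8 to 80.1 CPM in WT and 83.1 to 116 CPM in APP-NL-G-F), opposite to females, and all 8 oligodendrocyte markers (median 0.61, sums of 232.7 to 273 and 312 to 413 CPM). In each list 7 were at an unadjusted p under 0.05 and 0 were called, and their part in the male values was not tested. Leaving out replicate 1, 2 or 4 of the APP-NL-G-F males put Ppp1r15a at -0.31, -0.32 or -0.86. Without APP-NL-G-F male replicate 4 Herpud1 and Atf4 were called, and without male replicate 3 Herpud1 was.

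**Figure D4:**
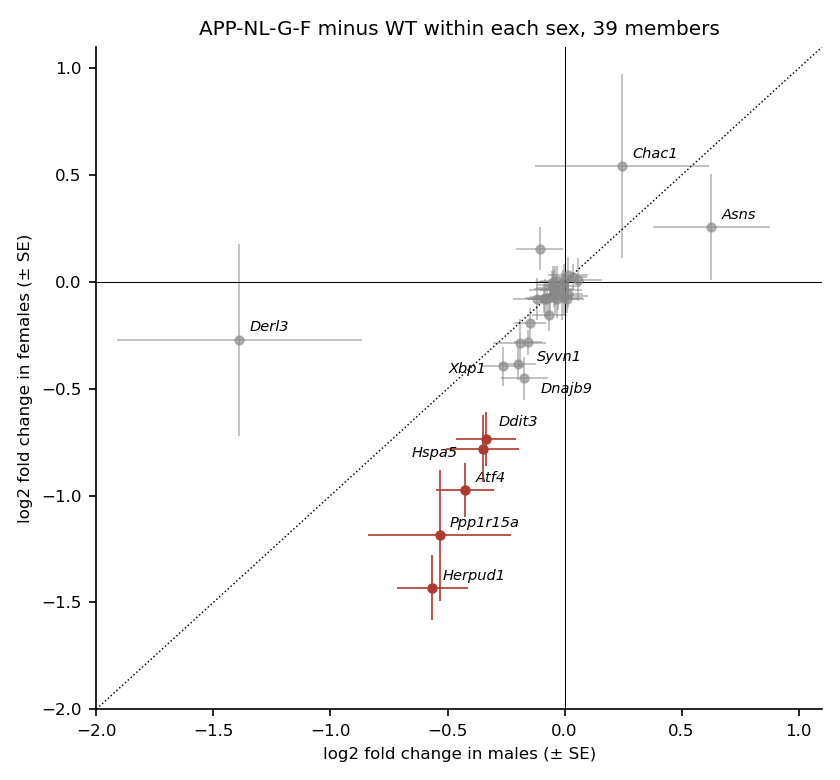
Log2 fold change of APP-NL-G-F against WT within females (vertical axis) and within males (horizontal axis), each ± SE, for the 39 tested members, with the line of equal change dotted. Red marks the 5 members called in females. All 5 lie below the line, such as Herpud1 at -1.43 in females and -0.56 in males.

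The difference between the sexes' genotype effects passed for no member, beside 0.0274% of all genes. Before adjustment, 3 members were at p under 0.05, Herpud1, Atf4 and Ddit3, beside 5.94% of all genes, and DESeq2 called Herpud1. Herpud1 differed by -0.87 ± 0.21 on the log2 scale between females and males (FDR = 0.236 in edgeR), and Atf4 by -0.55 ± 0.18 (FDR = 0.502). A larger effect in females is therefore not shown for these genes at the threshold used. Without WT female replicate 4 Herpud1 passed.

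The sexes were also compared in WT, where 2 members were called. This comparison uses the same WT female libraries as the female genotype comparison, so the values of both are not independent. Called higher in WT females than in WT males were Herpud1 (0.79 ± 0.15 on the log2 scale, FDR = 0.0242) and Atf4 (0.52 ± 0.12, FDR = 0.0712), that is 2 members beside 0.839% of all genes. Syvn1 passed the FDR alone (0.32 ± 0.08, FDR = 0.0792), which makes 3 beside 1.06%. Hspa5 was at 0.53 ± 0.16 (FDR = 0.165) and Ppp1r15a at 0.60 ± 0.30 (FDR = 0.492). The WT ranges of females and males did not overlap for Atf4, Herpud1, Syvn1 and Ppp1r15a, beside 4.20% of all genes, and in APP-NL-G-F the ranges overlapped for every tested member, where 1.66% of all genes were without overlap. In the same comparison 7 of 20 immediate early and 8 of 10 endothelial genes were called higher in WT females, and the endothelial sum was 67.8 to 80.1 CPM in WT males. Their part was not tested. No member was called without WT male replicate 2, WT female replicate 1 or WT female replicate 2, and Atf4 alone was lost without WT male replicate 1 or 4 or APP-NL-G-F female replicate 2. Without WT female replicate 4 Hspa5 was called too.

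Another 108 genes of the same pathways were tested, and 1 was called over both sexes, Atf3, an ATF4-induced factor that is also an immediate early gene (log2 fold change -1.18 ± 0.29, FDR = 0.0139). Passing the FDR alone were Ube2j2 (-0.22 ± 0.05, FDR = 0.0127), a ubiquitin-conjugating enzyme of the ER, Cebpb (-0.41 ± 0.13, FDR = 0.0563), a partner of ATF4, and the death effector Bbc3 (-0.38 ± 0.13, FDR = 0.0821). These 4 were lower, and none was higher. The 1 called and the 4 at the FDR alone of 108 lie below the 4.30% and 7.82% of all genes. By list, 2 of 28 integrated stress response genes, 1 of 15 genes of sensor signalling and 1 of 21 further degradation genes were among them. None of 22 folding and glycoprotein genes, 14 of the translocon and signal peptidase or 8 of ER-phagy was, and their medians were -0.02, -0.00 and 0.00. In females 4 were called lower, Atf3, Slc7a11 (the cystine transporter), Bbc3 and Cebpb, near the 4.33% of all genes, and in males none. In males 3 of 108 were at an unadjusted p under 0.05, a smaller share than the 2126 of all 18227 tested genes.

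Several chaperones and isomerases also varied with the number of the library. Libraries numbered 1 to 8 are replicates 1 and 2 of each group, and libraries 9 to 16 are replicates 3 and 4. What the numbers stand for is not given in the sources used here, and the split was looked at after seeing the data. With a term for it beside sex and genotype, 9 of 39 members were higher in libraries 1 to 8 at the FDR alone, beside 1.88% of all genes (edgeR). They were Pdia4 (0.26 ± 0.05, FDR = 0.0167), Manf (0.23 ± 0.06), Crebrf (0.22 ± 0.05), Sdf2l1 (0.19 ± 0.05), Pdia6 (0.18 ± 0.04), Pdia3 (0.18 ± 0.04), Dnajc3 (0.18 ± 0.04), Hsp90b1 (0.18 ± 0.04) and Canx (0.15 ± 0.04), and Ppp1r15a was lower (-0.64 ± 0.18, FDR = 0.0772). All 11 chaperones and all 4 isomerases were above 0, while the chaperones lower by genotype did not pass here for Hspa5 (FDR = 0.599), Dnajb9 (FDR = 0.835) and Calr (FDR = 0.119). The median was 0.15 over the chaperones and 0.18 over the isomerases, against -0.01 over all genes. Pdia4 was higher in libraries 1 to 8 in each group, by 0.24 in WT females, 0.42 in WT males, 0.32 in APP-NL-G-F females and 0.05 in APP-NL-G-F males (log2 CPM). Hspa5 was higher by 0.45, 0.30 and 0.40 in the first 3 of these groups and lower by -0.50 in APP-NL-G-F males. With this term the 5 genotype calls were the same.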

How the data were processed

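Olfactory bulb microglia were captured with CD11b beads, and total RNA was made into Takara SMART-Seq Stranded libraries. Reads were mapped by the authors (STAR, GRCm39, GENCODE vM32, a human App sequence added), who deposited raw counts per gene without normalization. Each library was taken as 1 replicate. The labels do not say which mice it came from, so p-values measure the spread between these libraries, which may be technical in part.

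Counts were analysed with edgeR 4.0.16 in R 4.3.3 (TMM factors, glmQLFit and glmQLFTest, at least 5 counts in at least 8 libraries). Genotype was tested with sex as a term, and contrasts within sexes, their difference and the WT sexes in a fit of 4 groups. Standard errors are the log2 fold change over the square root of F, and log2 CPM carries a prior count of 2. FDR is Benjamini-Hochberg over all tested genes. Permutation tests are exact and two-sided. DESeq2 1.42.0, limma 3.58.1 (voom), other scalings, filters, thresholds and covariates, a replicate block and leaving out each library were tried. The procedure was tested on simulated data. The simulated counts were drawn independently and held no batch or dissociation effect, so they cannot show how such effects act on the calls.

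Values of every library are given for members called in any contrast, the 5 of smallest p over both sexes, and Hspa5, Xbp1, Atf4 and Ddit3. Of other pathway genes, those called or among the 3 of smallest p are named, with others that passed the FDR. Members and lists were chosen with earlier results of these data known. Positions and sequence came from GRCm39 with GENCODE vM39, another release than that of the counts. Depth of 9052932 to 18117286 counts limits Derl3, Chac1, Asns and Trib3. The limit given for a count of 0 covers counting error only.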

Additional observations from a re-analysis of the deposited data

Results flagged for a closer look

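The libraries printed one by one were examined for values far from the others of their group, in 32 groups of 4, where chance marks about 1 group in 20. In APP-NL-G-F females replicate 4 stood apart for Atf4, with 139 CPM against 106, 106 and 102 in the others. In WT males replicate 1 stood apart for Ppp1r15a, with 244.5 CPM against 296, 302 and 299. Leaving out either library changed none of the 5 calls over both sexes.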

How the results depend on the processing

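Over both sexes, 5 members were called, and 5 under DESeq2, limma voom, RLE factors, a stricter filter, an FDR of 0.05, no sex term and the term for library numbers. The count was 11 with no fold threshold, 2 with the neuron mean and 0 with the immediate early mean as a covariate (where Ppp1r15a turned to a log2 fold change of 0.0755), and 1 in libraries 9 to 16 alone. Leaving out 1 library gave 4 to 5. In females the other settings gave the same 5 calls, and leaving out 1 library gave 4 to 6. In males 0 became 1 with DESeq2 and 0 to 2 without 1 library. In the difference between the sexes 0 became 1 with DESeq2 and 0 to 1 without 1 library. For sex in WT 2 became 1 with library totals and 0 to 3 without 1 library. The causes were not tested. With no filter edgeR gave 5 over both sexes, 5 in females, 2 in males, 3 in the difference and 4 in WT, but its prior degrees of freedom became infinite and each gene's own spread was not used (for Ppp1r15a a quasi-dispersion of 0.556 in place of an observed 11.9), so these counts say nothing about stability. Whether replicate numbers pair the samples is not settled. Of 24 same-numbered pairs 8 had deviations correlated above 0.1 (range -0.33 to 0.29), and 8 of 16 libraries were closest to their own number. These counts were not set against a chance rate. With the replicate block the calls were 5 over both sexes, 5 in females, 0 in males, 0 in the difference and 2 in WT. Depth limits the members with few counts, Derl3, Chac1 and Asns.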
